A study of Rattus norvegicus with 12 samples.

Results

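The amiloride-sensitive epithelial sodium channel and the aldosterone pathway that controls it were described through 7 genes in the intestine of wild-type rats. The rule that picks the genes goes by name and uses no measured value, though they were chosen with earlier results of these data known. They are the channel subunits Scnn1a, Scnn1b and Scnn1g, the mineralocorticoid receptor Nr3c2 and the glucocorticoid-inactivating enzyme Hsd11b2. The kinase Sgk1 and the sodium pump subunit Atp1b1 complete the set. All 7 were among the 18749 genes of the deposited table, and all 7 were among the 15704 genes with enough counts to be tested. The series is about how the small intestine adapts after removal of the colon. Polyadenylated RNA was sequenced from 12 samples, 4 in each of 3 groups, all labelled as wild type, as intestine and as batch 1. The group postSTC (replicates 1, 2, 5 and 7) is labelled as postoperative and the group preSTC (replicates 1, 5, 7 and 9) as preoperative. The group preCTC (replicates 1, 5, 7 and 9) was taken before sham surgery. STC and CTC are not spelled out in the labels, and age, time after the operation and the position along the bowel are not among the labels used here. Samples from after sham surgery were not analysed here, and an effect of the operation cannot be told apart from one of elapsed time. The labels do not say whether replicates are separate animals, and the p-values below therefore cover no more than the variation among the samples at hand, possibly technical.

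Sodium is taken up across tight epithelia of the distal colon, the kidney and the airways by the epithelial sodium channel, an assembly of an alpha, a beta and a gamma subunit encoded by Scnn1a, Scnn1b and Scnn1g. Aldosterone enters the cell and binds the mineralocorticoid receptor, which induces channel subunits and the kinase Sgk1. Sgk1 keeps the ubiquitin ligase Nedd4l from removing channels from the apical membrane, and the basolateral sodium pump, to which Atp1b1 contributes a beta subunit, moves the sodium on into the blood. Hsd11b2 inactivates glucocorticoids, which would otherwise occupy the same receptor. In the rat colon it is mainly the beta and gamma subunits that aldosterone induces, while the small intestine takes up sodium largely by exchangers and nutrient-coupled transporters.

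Facts about the libraries touch all of the results and stand first. Total counts ran from 30095656 to 39374682, and expression is given as CPM, counts scaled to a common library total, after TMM scaling (trimmed mean of M values). In postSTC7, 42.1% of all counts came from 12 listed genes of male accessory glands such as the seminal vesicle, against 0.0025% to 0.0341% in the other 11 libraries. The list's geometric mean was 3.88 CPM in preSTC7 and 0.157 to 0.194 CPM in the other 3 preSTC libraries and in preCTC, while postSTC1, postSTC2 and postSTC5 lay at 3.51 to 4.50 CPM. Ileal markers, among them the bile acid transporter Slc10a2 and the bile acid binding protein Fabp6, had a geometric mean of 153 to 182 CPM in preSTC, 58.7 to 239 CPM in postSTC and 1.02 to 1.78 CPM in preCTC. Summed, they lay at 7673 to 8638 CPM in preSTC, 2583 to 6595 CPM in postSTC and 17.1 to 60.5 CPM in preCTC, without overlap. Of 6 tested ileal markers 3 were called lower and 0 higher in postSTC than in preSTC, where 6.90% of all tested genes were lower. Slc10a2 itself lay at 0.105 to 0.458 CPM in preCTC, against 524 to 578 CPM in preSTC. Markers of the distal bowel, among them Hoxb13, Hoxd13, Car1 and Aqp8, went the other way, with 0.950 to 1.56 CPM in preSTC, 21.2 to 67.2 CPM in postSTC and 25.3 to 142 CPM in preCTC. Their summed level was 184 to 243 CPM in preSTC, 384 to 924 CPM in postSTC and 2086 to 4509 CPM in preCTC, without overlap. Of these 9 markers 6 were called higher in postSTC than in preSTC and 4 lower in postSTC than in preCTC. Of all tested genes 11.1% and 7.37% were. Library preCTC5 stood apart from its group: Hoxb13, a position gene of the hindgut, lay at 1.45 CPM there and at 315 to 445 CPM in the other 3. Not all distal bowel markers were low in preCTC5. Their summed level was 4509 CPM there, the highest of the 12 libraries, and 2086 to 3298 CPM in preCTC1, preCTC7 and preCTC9. Epithelial markers were present in every library, at a geometric mean of 571 to 1073 CPM, lowest in postSTC7, and smooth muscle markers had 277 to 435 CPM in preSTC, 522 to 737 CPM in postSTC and 875 to 1376 CPM in preCTC. Fibroblast and matrix markers had 182 to 224 CPM in preSTC, 220.0 to 351 CPM in postSTC and 394 to 554 CPM in preCTC. In postSTC against preSTC 3 of 7 fibroblast and matrix markers and 3 of 6 endothelial markers were called higher, where 11.1% of all tested genes were. In preSTC against preCTC 6 of 7 fibroblast and matrix markers and 2 of 6 endothelial markers were called lower and 2 of 6 immune cell markers higher. Of all tested genes 19.6% were lower and 19.1% higher there, so 2 calls in a list of 6 are no result about a cell type. The groups thus differ in markers of bowel region, of muscle and of fibroblasts and matrix. The part of these differences, and of other cell types, in the results below was not tested.

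**Figure D1:**
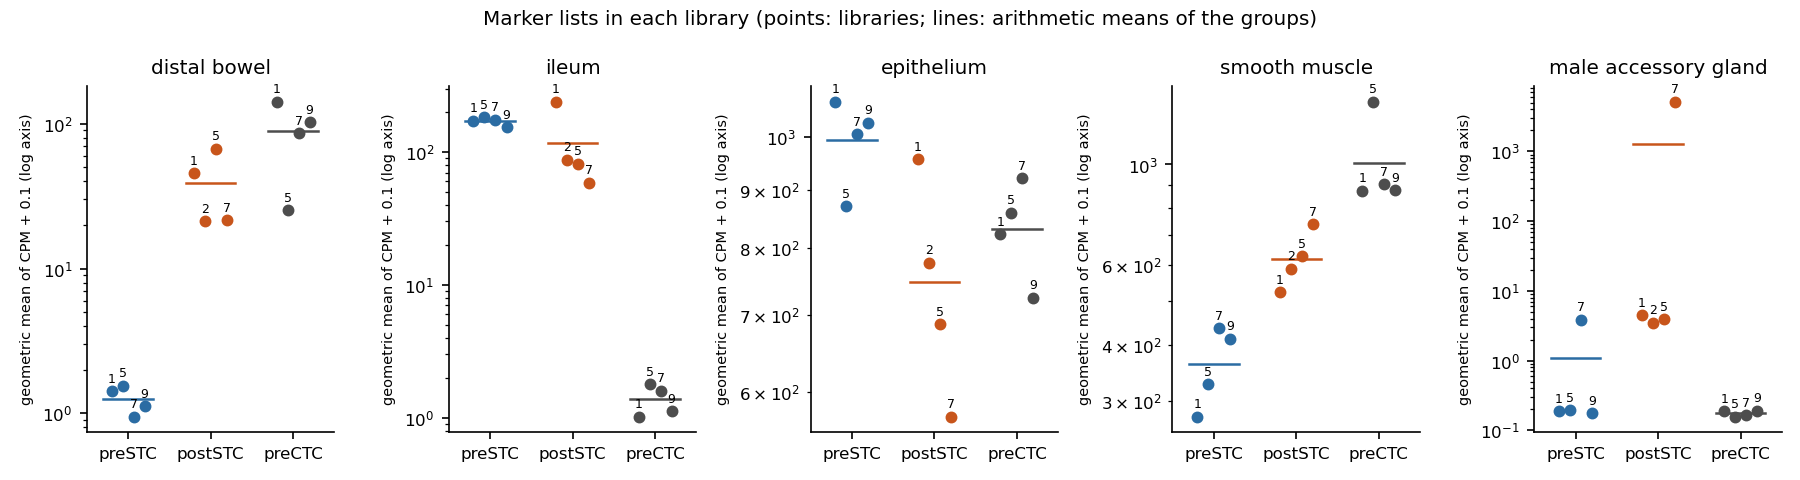
Geometric mean of CPM + 0.1 (log axis) over 5 marker lists in each of the 12 libraries, with libraries as points labelled by replicate number and group means as lines. Distal bowel markers lay at 0.950 to 1.56 CPM in preSTC, 21.2 to 67.2 CPM in postSTC and 25.3 to 142 CPM in preCTC. Ileal markers were near 1 CPM only in preCTC, and postSTC7 stood at 5156 CPM for male accessory gland genes.

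The genes of the beta and gamma subunits are neighbours in the genome, on the same strand of chromosome 1, with no other protein-coding gene between them in the RefSeq table. Their upstream windows are shown because the pair had the largest fold changes of the 7 genes in postSTC against preSTC. RefSeq promoter entries (assembly GRCr8) matched 3 of the 7 genes, Scnn1b, Scnn1g and Sgk1. The windows end just before the gene's first annotated base and lie at chr1:185861126-185861325 (Scnn1b, 200 bases, plus strand) and chr1:185735975-185736224 (Scnn1g, 250 bases, plus strand). Capitals mark matches, on either strand, to GGGCGG (the GC box) and to TTTATG (the core of sites of the intestinal CDX factors).
Scnn1b: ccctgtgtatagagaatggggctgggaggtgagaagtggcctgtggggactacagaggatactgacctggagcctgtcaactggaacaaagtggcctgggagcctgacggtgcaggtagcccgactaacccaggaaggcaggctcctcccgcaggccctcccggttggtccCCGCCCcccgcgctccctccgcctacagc
Scnn1g: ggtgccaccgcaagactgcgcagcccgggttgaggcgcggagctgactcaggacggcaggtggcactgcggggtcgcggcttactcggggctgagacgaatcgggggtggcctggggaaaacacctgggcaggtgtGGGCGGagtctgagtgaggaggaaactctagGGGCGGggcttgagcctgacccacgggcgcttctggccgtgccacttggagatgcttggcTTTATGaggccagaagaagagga
The Scnn1b window held 1 GC box, on the minus strand, and the Scnn1g window held 2. A match to TTTATG began 23 bases before the end of the Scnn1g window, and the Scnn1b window had none. Neither window held AGAACA (the core of steroid receptor sites) or TATAAA (the TATA box). No marked match overlapped another. Both windows were rich in G and C, at 65.0% and 65.6%. Among 33469 RefSeq windows cut to 200 bases, 24.2% held the GC box, 9.52% TTTATG, 14.2% AGAACA and 9.98% TATAAA. Cut to 250 bases, the shares were 30.5%, 11.4%, 17.5% and 12.9%. A match describes the letters of these windows and is not a measured binding site.

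The comparison of postSTC with preSTC asks what differed between intestine taken after and before the operation. All 3 channel subunits and Hsd11b2 were higher in postSTC, and the receptor Nr3c2, the kinase Sgk1 and the pump subunit Atp1b1 did not pass the test. By fold, Scnn1g (26.8-fold) and Scnn1b (20.3-fold) differed most, followed by Scnn1a (3.97-fold) and Hsd11b2 (2.76-fold). In this comparison 4 of the 7 genes were called higher and 0 lower at an adjusted p under 0.05 by edgeR's quasi-likelihood test, while 18.0% of all tested genes were called, 11.1% higher and 6.90% lower. The same 4 genes were those whose groups did not overlap in CPM, which held for 22.1% of all tested genes. These calls come from a fit without pairing by replicate number. With the number as a block in the 8 compared libraries alone, edgeR called 66 genes in all. Scnn1b and Scnn1g were among them, but not Scnn1a (adjusted p = 0.115) or Hsd11b2 (adjusted p = 0.159).

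Scnn1a, the subunit without which the channel does not conduct, lay at 16.9, 11.8, 20.2 and 14.1 CPM in preSTC1, preSTC5, preSTC7 and preSTC9. In postSTC1, postSTC2, postSTC5 and postSTC7 it lay at 71.8, 55.5, 87.9 and 34.7 CPM. Every postSTC library was above every preSTC library, with postSTC7 the lowest of its group. This gave a log2 fold change of 1.99 ± 0.30 (SE, 4 against 4 libraries; 95% interval 1.32 to 2.65; adjusted p = 0.00214). In bulk tissue, more cells of a type and more RNA per cell cannot be told apart.

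Scnn1b was rarely counted before the operation. It had 15, 21, 8 and 14 counts in the 4 preSTC libraries, which is 0.437, 0.544, 0.216 and 0.392 CPM. After the operation it had 247, 378, 340 and 136 counts, or 7.99, 9.32, 9.05 and 6.09 CPM. The lowest postSTC library was thus over the highest preSTC library by far more than the spread within either group, and the postSTC libraries were the more alike, with a coefficient of variation of 18% against 34.4%. The log2 fold change was 4.34 ± 0.51 (SE; 95% interval 3.22 to 5.46; adjusted p = 0.000676).

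Scnn1g, the gamma subunit, also had few counts in preSTC, with 13, 2, 4 and 6 counts (0.378, 0.0518, 0.108 and 0.168 CPM). In postSTC it had 240, 182, 88 and 100 counts (7.76, 4.49, 2.34 and 4.48 CPM). The groups did not overlap, and postSTC1 was the highest library while postSTC5 was the lowest of its group. The preSTC values rest on few reads, and the interval of the log2 fold change was the widest of the 7 genes, 3.19 to 6.30 around 4.74 ± 0.71 (SE; adjusted p = 0.00201).

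**Figure D2:**
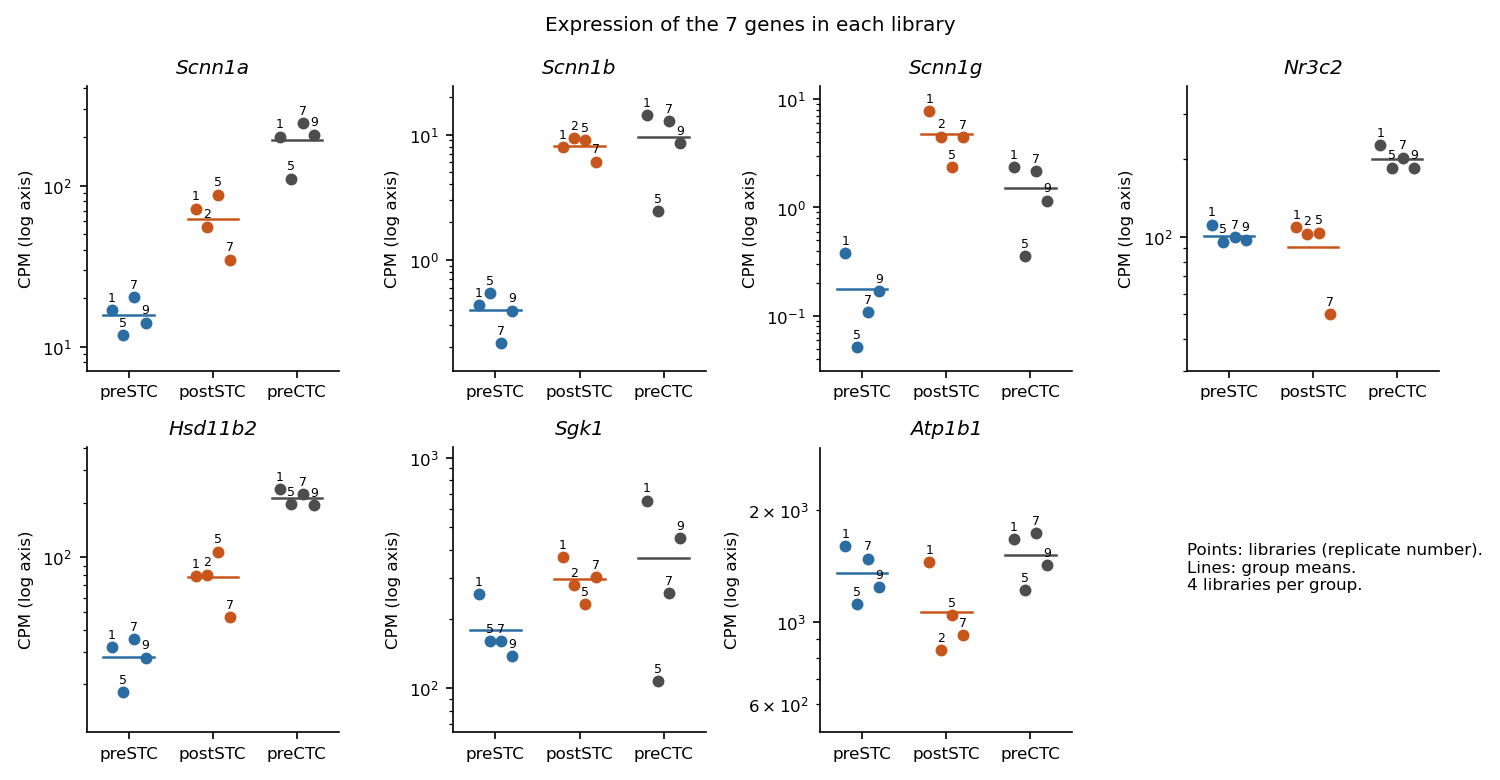
CPM (log axis) of the 7 genes in each of the 12 libraries, with libraries as points labelled by replicate number and group means as lines, 4 libraries per group. Scnn1a, Scnn1b, Scnn1g and Hsd11b2 show every postSTC library above every preSTC library, and preCTC5 is the lowest preCTC library for the 3 channel subunits and Sgk1.

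Of the pair that decides which steroid acts, the enzyme differed and the receptor did not pass the test. Hsd11b2 lay at 32.0, 18.1, 35.3 and 28.1 CPM in preSTC and at 78.8, 80.2, 107 and 46.8 CPM in postSTC. The groups did not overlap, postSTC7 again being the lowest postSTC library. Its log2 fold change was 1.46 ± 0.24 (SE; 95% interval 0.94 to 1.99; adjusted p = 0.00282). Nr3c2 lay at 111, 95.7, 99.3 and 97.3 CPM in preSTC and at 109, 103, 104 and 49.9 CPM in postSTC. Apart from postSTC7 the libraries of both groups covered the same narrow range. The log2 fold change was -0.14 ± 0.20 (SE; 95% interval -0.58 to 0.29; adjusted p = 0.648), 0.05 without postSTC7 and 0.25 with libraries scaled on epithelial markers. The interval thus leaves room for a difference of the receptor in either direction.

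Sgk1, the kinase that aldosterone induces early, lay at 256, 160.4, 161 and 138 CPM in preSTC and at 372, 281, 232 and 303 CPM in postSTC. The mean was higher in postSTC, but preSTC1 lay above postSTC5, so the groups overlapped. For this gene the log2 fold change was 0.73 ± 0.42 (SE; 95% interval -0.18 to 1.65; adjusted p = 0.245). Atp1b1, the pump subunit, was the most abundant of the 7 per length in every group. It had 1599, 1115, 1482 and 1240 CPM in preSTC and 1451, 838, 1043 and 921 CPM in postSTC, and the groups overlapped. Its log2 fold change was -0.35 ± 0.20 (SE; 95% interval -0.79 to 0.08; adjusted p = 0.236), -0.54 with an adjusted p of 0.048 without postSTC1, and 0.07 with libraries scaled on epithelial markers.

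Replicate numbers 1, 5 and 7 occur in both groups, and deviations from the group means correlated weakly between same-numbered libraries (0.236, 0.158 and 0.168). No label states a pairing. With the number as a block in the fit of all 12 libraries, the 4 calls held (adjusted p 0.0207 for Scnn1a, 0.0104 for Scnn1b, 0.00315 for Scnn1g and 0.0337 for Hsd11b2). With the block in a fit of the 8 libraries alone, Scnn1b (4.30 log2 units, adjusted p = 0.0321) and Scnn1g (4.91 log2 units, adjusted p = 0.0389) held, while Scnn1a (1.91 log2 units, adjusted p = 0.115) and Hsd11b2 (1.4 log2 units, adjusted p = 0.159) did not. Without postSTC7 the 4 log2 fold changes were 2.17, 4.45, 4.77 and 1.63, all called. Distal bowel and smooth muscle markers were higher and the summed ileal markers lower in postSTC in the same libraries, as given above. The part of these markers in these 4 results was not tested.

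The comparison of preSTC with preCTC sets side by side samples that were all taken before surgery. It shares the preSTC libraries with the comparison above, so its values are given beside the others and not as a second source. All 3 channel subunits, Nr3c2 and Hsd11b2 were lower in preSTC, and Sgk1 and Atp1b1 did not pass the test. Thus 0 of the 7 genes were called higher and 5 lower, where 38.7% of all tested genes were called, 19.1% higher and 19.6% lower. For 4 of the 7 the groups did not overlap, against 45.0% of all tested genes. With so large a background, the number of members called is no result about these genes, but the size of their differences can be read gene by gene.

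Scnn1a lay at 201, 110.2, 244 and 206 CPM in preCTC1, preCTC5, preCTC7 and preCTC9. All 4 were above the highest preSTC library at 20.2 CPM, and preCTC5 was the lowest. The log2 fold change of preSTC over preCTC was -3.59 ± 0.32 (SE; adjusted p = 1.11e-05). Scnn1b lay at 14.4, 2.43, 12.9 and 8.60 CPM in the same order, all above preSTC, with a log2 fold change of -4.58 ± 0.52 (SE; adjusted p = 4.98e-05). For Scnn1g the values were 2.35, 0.355, 2.16 and 1.16 CPM (90, 14, 84 and 48 counts). Here preCTC5 lay inside the preSTC range, below preSTC1, so the groups overlapped. The log2 fold change was -3.08 ± 0.68 (SE; adjusted p = 0.00416).

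Nr3c2 lay at 227, 186, 203 and 186 CPM in preCTC and did not overlap with preSTC, with a log2 fold change of -0.99 ± 0.20 (SE; adjusted p = 0.00235). Hsd11b2 lay at 236, 196, 222 and 193 CPM, and its groups did not overlap either. Its log2 fold change was -2.90 ± 0.25 (SE; adjusted p = 9.18e-06). For both genes preCTC5 was close to the other preCTC libraries, whereas it was the lowest by a wide margin for the beta and gamma subunits and for Sgk1. Sgk1 had 652, 107, 259 and 448 CPM in preCTC, a coefficient of variation of 64.4%, and overlapped with preSTC. Its log2 fold change was -1.04 ± 0.42 (SE; 95% interval -1.96 to -0.12; adjusted p = 0.0712), which became -1.34 with an adjusted p of 0.00578 without preCTC5, and DESeq2 gave an adjusted p of 0.0317. The value was smaller, at -0.6 (adjusted p = 0.257) without preCTC1, -0.93 (adjusted p = 0.152) without preCTC9 and -0.79 (adjusted p = 0.166) by limma's voom. The call of Sgk1 thus depended on single libraries and on the method. Atp1b1 lay at 1672, 1217, 1740 and 1421 CPM, and its log2 fold change was -0.15 ± 0.20 (SE; 95% interval -0.59 to 0.28; adjusted p = 0.567). Without preCTC5 the 5 calls held, at -3.78 for Scnn1a, -4.90 for Scnn1b, -3.41 for Scnn1g, -1.03 for Nr3c2 and -2.93 for Hsd11b2. Ileal markers had a geometric mean near 1 CPM in preCTC, and so had distal bowel markers in preSTC. The group and the bowel region that these markers stand for thus cannot be told apart here.

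**Figure D3:**
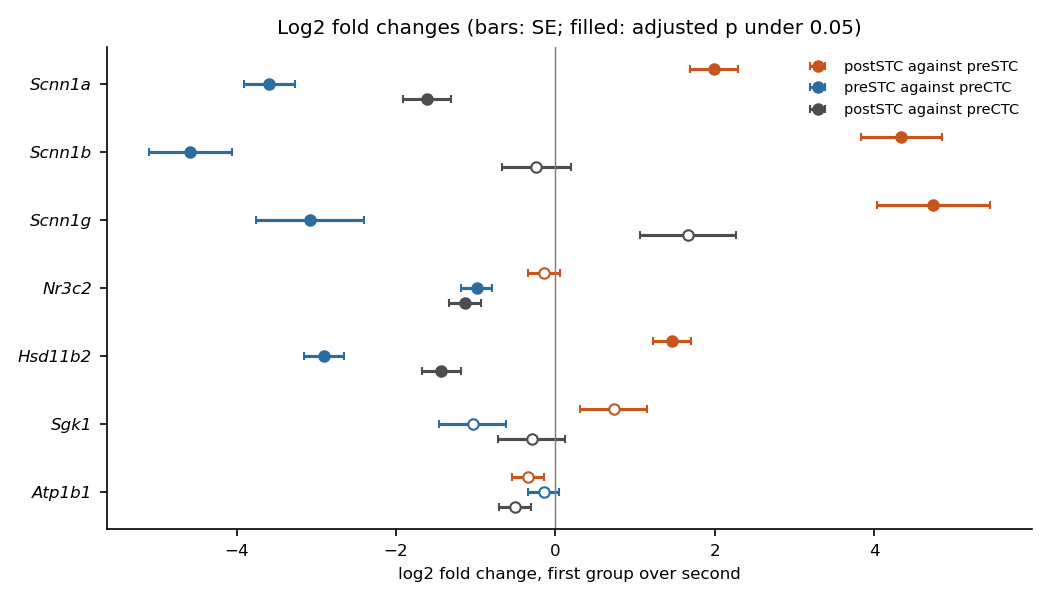
Log2 fold changes of the 7 genes in the 3 comparisons (points, filled where the adjusted p was under 0.05; bars, SE; 4 against 4 libraries). The comparisons share libraries. In postSTC against preSTC the subunits lie at 1.99, 4.34 and 4.74, and in postSTC against preCTC Scnn1a lies at -1.61 while Scnn1b and Scnn1g lie at -0.24 and 1.66, both unfilled.

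The comparison of postSTC with preCTC shares its libraries with both comparisons above. Scnn1a, Nr3c2 and Hsd11b2 were lower in postSTC than in preCTC, and the other 4 genes did not pass the test. That makes 0 of the 7 genes called higher and 3 lower, with 16.6% of all tested genes called, 9.27% higher and 7.37% lower. The groups of the same 3 genes did not overlap, as for 18.1% of all tested genes. Scnn1a had a log2 fold change of -1.61 ± 0.30 (SE; adjusted p = 0.00368), the highest postSTC library at 87.9 CPM lying below preCTC5 at 110.2 CPM. Hsd11b2 stood at -1.43 ± 0.24 (SE; adjusted p = 0.002) and Nr3c2 at -1.14 ± 0.20 (SE; adjusted p = 0.00265). The difference for Scnn1b was -0.24 ± 0.43 (SE; 95% interval -1.17 to 0.70; adjusted p = 0.75), an interval that does not show the levels to be alike. Scnn1g differed by 1.66 ± 0.60 (SE; 95% interval 0.36 to 2.96; adjusted p = 0.079) towards postSTC, where only postSTC5 lay inside the preCTC range. DESeq2 called it (adjusted p = 0.0294), as did limma's voom (adjusted p = 0.0409). The edgeR value was 1.32 (adjusted p = 0.177) without postSTC1 and 1.55 (adjusted p = 0.166) without preCTC9. In a fit of the 8 libraries alone Scnn1g was not called either (adjusted p = 0.114). Sgk1 (-0.30 ± 0.42, SE; adjusted p = 0.669) and Atp1b1 (-0.51 ± 0.20, SE; adjusted p = 0.104) overlapped between the groups. For Atp1b1 the value without postSTC1 was -0.70, with an adjusted p of 0.0236.

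To compare the genes with each other, levels were taken per transcript length, as the deposited FPKM (fragments per kilobase of transcript, scaled to the library total) rescaled by TMM. In preSTC the order was Atp1b1 (617 ± 100), Sgk1 (47.2 ± 13.8), Nr3c2 (16.8 ± 1.17), Hsd11b2 (15.2 ± 4.00), Scnn1a (4.67 ± 1.08), Scnn1b (0.160 ± 0.0551) and Scnn1g (0.0595 ± 0.0481 FPKM; SD, n = 4 for each). Of the neighbours in that order, Nr3c2 and Hsd11b2 overlapped, and so did Scnn1b and Scnn1g. In postSTC the order was Atp1b1 (483 ± 123), Sgk1 (78.4 ± 15.3), Hsd11b2 (42.0 ± 13.3), Scnn1a (18.5 ± 6.75), Nr3c2 (15.2 ± 4.61), Scnn1b (3.28 ± 0.591) and Scnn1g (1.61 ± 0.754 FPKM; SD, n = 4). There Hsd11b2 overlapped Scnn1a, Scnn1a overlapped Nr3c2, and Scnn1b overlapped Scnn1g over the libraries. In preCTC it was Atp1b1 (687 ± 109), Hsd11b2 (114 ± 11.3), Sgk1 (96.8 ± 62.4), Scnn1a (56.4 ± 16.8), Nr3c2 (33.5 ± 3.28), Scnn1b (3.87 ± 2.16) and Scnn1g (0.508 ± 0.314 FPKM; SD, n = 4). Sgk1 overlapped there with both of its neighbours, and Scnn1a with Nr3c2. In every group the alpha subunit was thus the most abundant channel transcript per length, and no library had a beta or gamma level above its alpha level.

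Ratios within a library do not depend on the scaling between libraries and show whether genes changed unequally. The beta subunit stood at 15.2%, 22.9%, 14.0% and 24.0% of the alpha subunit per length in postSTC1, postSTC2, postSTC5 and postSTC7. In preSTC1, preSTC5, preSTC7 and preSTC9 it stood at 3.52%, 6.28%, 1.46% and 3.80%, and in the 4 preCTC libraries at 9.77%, 3.01%, 7.21% and 5.68%. Every postSTC library had relatively more beta subunit than any library of the other groups. The mean log2 ratio was 2.38 higher in postSTC than in preSTC and 1.65 higher than in preCTC (exact two-sided permutation test over 70 splits of 4 against 4, p = 0.0286 for each, the smallest p the design allows; 0.0367 after Benjamini-Hochberg adjustment over 9 ratio tests). Between preSTC and preCTC it differed by -0.74 (exact permutation p = 0.257, adjusted 0.286).

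The gamma subunit stood at 12.3%, 9.20%, 3.03% and 14.7% of the alpha subunit in postSTC. It stood at 2.55%, 0.499%, 0.608% and 1.36% in preSTC and at 1.33%, 0.366%, 1.01% and 0.637% in preCTC. Again every postSTC library lay above all 8 others, postSTC5 by the smallest margin. The mean log2 ratio was 2.74 higher than in preSTC and 3.46 higher than in preCTC (exact permutation p = 0.0286 for each, adjusted 0.0367), and 0.73 apart between preSTC and preCTC (exact permutation p = 0.286, adjusted 0.286). With 0.1 in place of 0.01 FPKM added before taking logs, the first of these became 1.45 (adjusted exact permutation p = 0.0964) and the last 1.79 (adjusted 0.0367), so the ratio in preSTC, which rests on 2 to 13 counts of Scnn1g, depends on that constant. The share of gamma relative to beta, chosen after its values were seen and therefore given without a test, was 81.1%, 40.2%, 21.6% and 61.4% in postSTC and 72.3%, 7.95%, 41.7% and 35.8% in preSTC. In preCTC it was 13.7%, 12.2%, 14.0% and 11.2%, a range much narrower than in the other groups.

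**Figure D4:**
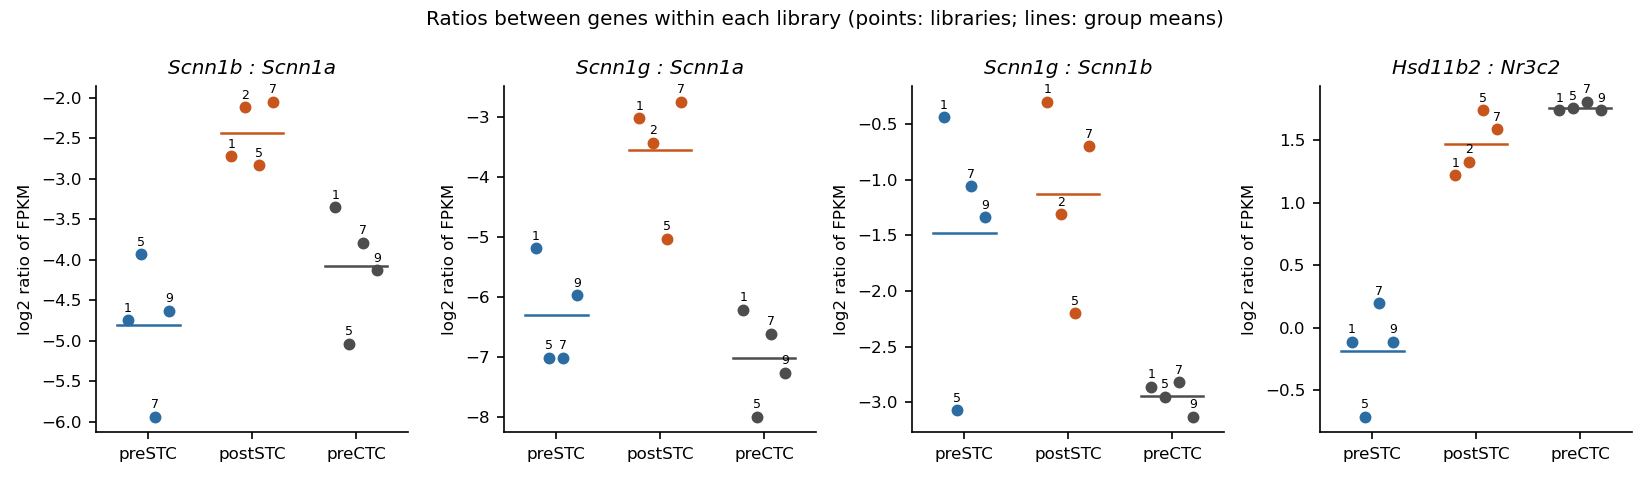
Log2 ratio of FPKM between pairs of genes within each library, with libraries as points labelled by replicate number and group means as lines. Scnn1b and Scnn1g relative to Scnn1a were highest in the 4 postSTC libraries, and Hsd11b2 relative to Nr3c2 was lowest in the 4 preSTC libraries and tightly grouped in preCTC.

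The enzyme relative to its receptor partner, Hsd11b2 to Nr3c2 per length, was 92.7%, 60.9%, 114% and 92.8% in preSTC. It was 233%, 251%, 333% and 301% in postSTC and 334%, 339%, 352% and 334% in preCTC. The preSTC libraries were lowest and did not overlap with either group, and the highest postSTC library lay just under the lowest preCTC library. The mean log2 ratio was 1.65 higher in postSTC than in preSTC, differed by -1.95 between preSTC and preCTC and by -0.29 between postSTC and preCTC (exact permutation p = 0.0286 for each, adjusted 0.0367). In postSTC7, the library lowest in both genes, the ratio of 301% lay inside the range of the other 3 postSTC libraries.

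With 1 library left out, all 56 values of the 7 ratio differences that had passed kept their sign, but 22 missed the adjusted threshold (adjusted exact permutation p 0.0514 to 0.147). With 3 against 4 libraries there are 35 splits and the exact p before adjustment cannot go below 0.0286. At that floor lay 8 of the 22, all with an adjusted p of 0.0514, so that their miss came from the adjustment over the 9 tests and says nothing on the stability of the ratio. The other 14 had an exact p of 0.0571 to 0.114 before adjustment. The groups of all 7 ratios did not overlap, so the further splits that reached the observed difference had the opposite sign. The two-sided test counts these when the groups are unequal in size, so these 14 misses do not show an unstable ratio either. For postSTC against preSTC the 22 included Scnn1b to Scnn1a without postSTC7 (2.26), Hsd11b2 to Nr3c2 without postSTC7 (1.61), and Scnn1g to Scnn1a without postSTC1 (2.56), postSTC7 (2.47), preSTC1 (3.10), preSTC5 (2.5), preSTC7 (2.5) or preSTC9 (2.84). For postSTC against preCTC they included Scnn1b to Scnn1a without postSTC2 (1.55), postSTC7 (1.52), preCTC5 (1.33) or preCTC9 (1.63), and Scnn1g to Scnn1a without postSTC7 (3.19), preCTC5 (3.14) or preCTC9 (3.38). Hsd11b2 to Nr3c2 missed it there without postSTC7 (-0.33), preCTC1 (-0.30), preCTC5 (-0.30), preCTC7 (-0.28) or preCTC9 (-0.30), and for preSTC against preCTC without preCTC5 (-1.95) or preCTC9 (-1.96).

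Beside the 7 genes, 89 other genes of the pathway were read from 6 lists chosen by function, of which 82 were tested. In postSTC against preSTC 12 of them were called higher and 5 lower, which is 20.7% against 18.0% of all tested genes, and their median log2 fold change was 0.16 against 0.04. The share of pathway genes called was thus near the background. With the replicate block in all 12 libraries 10 of the 82 were called (12.2%, against 11.1% of all tested genes). The sodium pump subunits and FXYD regulators held the most, with 6 of 12 tested genes higher, 0 lower and a median of 0.65. Of the corticosteroid-induced transcripts 3 of 12 were higher and 0 lower, with a median of 0.71.

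Fxyd4, the pump regulator also called corticosteroid hormone-induced factor, differed most. It lay at 0.616 to 0.728 CPM in the 4 preSTC libraries and at 101, 43.8, 118 and 27.2 CPM in postSTC, with no overlap. Its log2 fold change came to 6.77 ± 1.41 (SE; adjusted p = 0.00829). In preCTC it lay at 541, 0.330, 247 and 291 CPM, so preCTC5 was at the preSTC level. Fxyd1 (phospholemman, 1.22 ± 0.20, SE; adjusted p = 0.00256) and Atp1b2 (0.88 ± 0.18, SE; adjusted p = 0.00776) were higher too, together with smooth muscle markers.

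Among corticosteroid-induced transcripts, Ndrg2 was higher in postSTC (1.47 ± 0.23, SE; adjusted p = 0.00239), as was Tsc22d3, which encodes the glucocorticoid-induced leucine zipper (1.10 ± 0.21, SE; adjusted p = 0.00639). Ndrg2 lay at 25.2 to 34.8 CPM in preSTC and at 66.1, 72.1, 115 and 59.3 CPM in postSTC, without overlap. Zbtb16, a transcription factor gene that responds to steroids, was called as well (2.40 ± 0.68, SE; adjusted p = 0.031), but postSTC7 alone stood at 33.2 CPM and the other 3 postSTC libraries at 3.94 to 7.32 CPM. Without postSTC7 its log2 fold change was 1.22 with an adjusted p of 0.0763. In preSTC against preCTC 1 of the 12 corticosteroid-induced transcripts was called higher and 4 lower, with a median of -0.82, where 38.7% of all tested genes were called. Ndrg2 (-2.55, adjusted p = 1.51e-05), Tsc22d3 (-1.50, adjusted p = 0.000273), Edn1, which encodes endothelin-1 (-2.12, adjusted p = 0.000324), and Klf9 (-1.10, adjusted p = 0.00669) were lower. Fkbp5, which encodes a chaperone partner of steroid receptors and was named after its value was seen, was higher (1.16 ± 0.37, SE; adjusted p = 0.0265). Its call was lost with epithelial marker scaling (0.94) and without preCTC1 (1.01), preCTC5 (1.12), preCTC9 (1.13), preSTC5 (1.07) or preSTC7 (1.07).

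**Figure D5:**
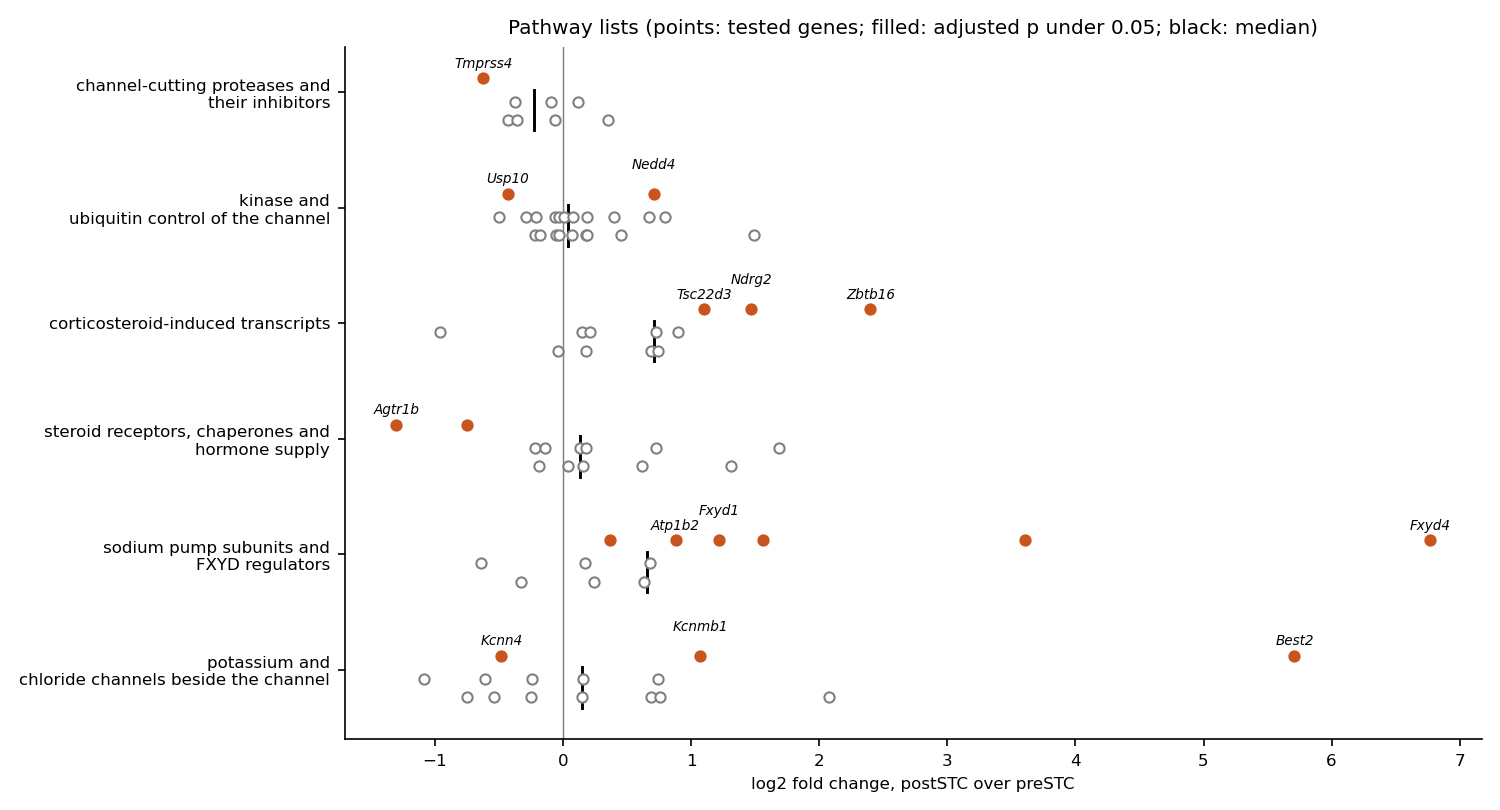
Log2 fold change of postSTC over preSTC for the 82 tested genes of 6 pathway lists (points, filled where the adjusted p was under 0.05, with the genes described in the text named; black ticks, medians). Pump subunits and FXYD regulators hold 6 filled points, all to the right of 0, with Fxyd4 at 6.77.

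Of the 22 tested genes that act on the channel through kinases and ubiquitin, 1 was called higher and 1 lower, with a median of 0.04. These were the ubiquitin ligase gene Nedd4 (0.71 ± 0.18, SE; adjusted p = 0.0211) and the deubiquitinase gene Usp10 (-0.43 ± 0.12, SE; adjusted p = 0.0254). Usp10 stood at 0.02 when libraries were scaled on epithelial markers. The 8 channel-cutting proteases and inhibitors had 0 genes higher and 1 lower, Tmprss4 (-0.62 ± 0.20, SE; adjusted p = 0.04995). Of 13 tested genes for steroid receptors, chaperones and hormone supply, 0 were higher and 2 lower. Among the latter was the angiotensin receptor gene Agtr1b (-1.30 ± 0.41, SE; adjusted p = 0.0482). Potassium and chloride channels had 2 of 15 higher and 1 lower. Best2, a bestrophin of colonic goblet cells, was at 0.0560 to 0.349 CPM in preSTC and at 8.34, 10.3, 15.4 and 9.90 CPM in postSTC (5.71 ± 1.03, SE; adjusted p = 0.00433). Kcnmb1, a potassium channel subunit of smooth muscle, was higher (1.07 ± 0.21, SE; adjusted p = 0.00612), along with the smooth muscle markers given above, and Kcnn4 was lower (-0.48 ± 0.15, SE; adjusted p = 0.0429).

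Of the 13 named genes called in postSTC against preSTC, the replicate block in all 12 libraries ended the calls of 5: Nedd4 (adjusted p = 0.0558), Usp10 (adjusted p = 0.0673), Tmprss4 (adjusted p = 0.115), Agtr1b (adjusted p = 0.0658) and Kcnn4 (adjusted p = 0.108). With the block in the 8 libraries alone, Fxyd4 kept its call (adjusted p = 0.0255) and the other 12 lost it. Limma's voom did not call Fxyd4 (adjusted p = 0.453), Best2 (adjusted p = 0.18), Zbtb16 (adjusted p = 0.104), Agtr1b or Kcnn4. Single libraries decided the call of 6 of the 13. Over all libraries left out in turn, the log2 fold change was -0.74 to -0.43 for Tmprss4, 0.52 to 0.86 for Nedd4, -0.49 to -0.33 for Usp10 and 1.22 to 2.77 for Zbtb16. It was -1.48 to -1.17 for Agtr1b and -0.60 to -0.40 for Kcnn4. Each of these lost its call without preSTC1 and without 2 or more of the other libraries.

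In preSTC against preCTC 13 of the 82 pathway genes were called higher and 20 lower, which is 40.2% against 38.7% of all tested genes, with a median of -0.17 against -0.02. Of those that were not called in postSTC against preSTC, where the difference between the comparisons was not tested, Wnk4, a kinase that regulates sodium transport, was lower in preSTC (-2.08 ± 0.17, SE; adjusted p = 5.83e-06). So were the potassium channel gene Kcnq1 (-1.10, adjusted p = 0.000853), Fxyd3 (-0.75, adjusted p = 0.00203), Fxyd6 (-1.18, adjusted p = 0.0151) and the protease gene Tmprss2 (-0.61, adjusted p = 0.0444). Tmprss2 lost its call without any 1 of the 8 libraries except preCTC9 (-0.71 to -0.44). The receptor chaperone genes Ptges3 (0.60, adjusted p = 0.000482) and Hsp90aa1 (0.51, adjusted p = 0.00458), Prr5 of the complex that phosphorylates Sgk1 (0.73, adjusted p = 0.00052) and Clca4 (2.57, adjusted p = 0.00081) were higher. Scaling on epithelial markers ended the calls of Ptges3 (0.33, adjusted p = 0.117) and Hsp90aa1 (0.25, adjusted p = 0.257). In postSTC against preCTC 8 were higher and 12 lower (24.4% against 16.6%). Cyp11b1 and Cyp11b2, the genes of the last steps of glucocorticoid and aldosterone synthesis, had too few counts to be tested, with 1, 1 and 5 counts and with 7, 1 and 2 counts summed over preSTC, preCTC and postSTC.

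Expression profiles were compared by the root mean square difference of log2 CPM, centred per gene, over the 12 libraries, where a small value means likeness. Scnn1b itself varied by 2.08 about its mean. The genes nearest to it were Ahnak2 (0.74), Thbs4 (0.78), Rnase1 (0.81), Adh7 (0.82) and Wfdc2 (0.82). Of the other channel subunits, Scnn1g had rank 26 (1.02) and Scnn1a rank 52 (1.12) among all tested genes. Hsd11b2 varied by 1.24, and Klk1b3 (0.22), Mtmr11 (0.31), Ndrg2 (0.32), Ddah1 (0.33) and LOC684327 (0.34) were nearest. Scnn1a followed at rank 17 (0.37), while the receptor Nr3c2 stood at rank 1001 (0.89). The alpha subunit was thus closer in profile to Hsd11b2 than to the beta subunit. The points share the 3 group levels, so likeness mostly describes how the groups are ordered: Ahnak2 had means of 2.83, 21.3 and 29.0 CPM and Mtmr11 of 21.8, 52.7 and 148 CPM in preSTC, postSTC and preCTC.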

How the data were processed

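Polyadenylated RNA of 12 rat intestine libraries was sequenced after TRIzol extraction and VAHTS library preparation, per the labels' protocols. The deposited table holds whole read counts per gene, and a second deposited table holds FPKM, which the authors scaled so that they are proportional to count over total within a gene (largest relative deviation 1.6e-13). fastp, HISAT2, HTSeq and the rat assembly mRatBN7.2 are named in the submitters' processing notes. Tool versions, the use of strand and the handling of reads with several matches were not given in the sources used here. The series' design text describes ileum and a pig genome and was not used. RefSeq names of assembly GRCr8 matched 18531 gene identifiers (98.8%).

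Groups and replicate numbers came from sample titles. In R 4.3.3, edgeR 4.0.16 with TMM scaling and filterByExpr (15704 genes kept) fitted 1 quasi-likelihood model to all 12 libraries, with two-sided tests and Benjamini-Hochberg adjustment over all tested genes. The SE of a log2 fold change is its size over the square root of F. The model was tested on simulated data for postSTC against preSTC. There 100 genes were changed 2-fold and 100 genes 4-fold, all above 1 CPM on average, with no other difference between groups. The model recovered 48% of the 2-fold and 83% of the 4-fold changes and called 3 unchanged genes. A 2-fold difference can thus go uncalled. These shares need not hold for the data, where 18.0% of all tested genes were called in this comparison. Alternatives used DESeq2 1.42.0, limma 3.58.1, other scalings, no filter, a replicate block and each library left out. Ratios used FPKM + 0.01. Counts of same-group libraries differed by more than sampling noise. Same-numbered postSTC and preSTC libraries correlated in their deviations from group means at 0.236, 0.158 and 0.168 for numbers 1, 5 and 7, so the numbers were read as pairs there. This pairing comes from the data, not from the labels. For preSTC with preCTC the correlations were 0.222, -0.0278, 0.171 and 0.145 for numbers 1, 5, 7 and 9. For postSTC with preCTC they were 0.22, -0.0159 and 0.0544 for numbers 1, 5 and 7. The numbers were not read as pairs in these comparisons, since number 5 did not correlate. Numbers 1, 7 and 9 of preSTC with preCTC correlated about as strongly as the pairs of postSTC and preSTC.

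The 7 genes, the lists and the tests were chosen with earlier results of these data known. Genes named from each pathway list were at most 4 called in postSTC against preSTC with the lowest adjusted p and at most 2 called in preSTC against preCTC alone, without a few genes that are not reported here. The 5 genes nearest in profile were named for Scnn1b and Hsd11b2, and Fkbp5, Cyp11b1 and Cyp11b2 were added after their values were seen.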

Additional observations from a re-analysis of the deposited data

Results flagged for a closer look

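Nr3c2 in postSTC had 1 library far from the others: postSTC7 lay at 49.9 CPM and the other 3 libraries at 103 to 109 CPM, so that the gap took up 0.901 of the group's whole range, above Dixon's 95% critical value for 4 samples. Each of the 7 genes was checked in each of the 3 groups, 21 checks in all, and chance alone marks about 1 in 20 such groups. In the same library 42.1% of counts came from male accessory gland genes and the epithelial marker level was the lowest of all 12 libraries. The part of either in the Nr3c2 value was not tested.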

How the results depend on the processing

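Of 357 values of the 7 genes under alternatives, 350 kept their direction and 7 reversed, none of them a called value. The reversed ones were Scnn1b in postSTC against preCTC (0.06 by limma's voom, 0.03 without preCTC1), Sgk1 there (0.17 with the replicate block in 8 libraries, 0.13 without preCTC1), Nr3c2 in postSTC against preSTC (0.25 with epithelial marker scaling, 0.05 without postSTC7) and Atp1b1 (0.07 with that scaling). Among other named genes Usp10 reversed to 0.02 with that scaling. Epithelial marker scaling moved the median log2 fold change of all genes in postSTC against preSTC from 0.04 to 0.50, the genes called from 2833 to 5058 and the share of calls that were higher from 61.7% to 95.7%. In preSTC against preCTC that share went from 49.3% to 27.5% and in postSTC against preCTC from 55.7% to 76.5%, with medians of -0.28 and 0.23. Under it Scnn1a (2.41), Scnn1b (4.75), Scnn1g (5.16) and Hsd11b2 (1.91) were still called, each above that median, and Sgk1 was called in preSTC against preCTC (-1.34, adjusted p = 0.0312). The replicate block in all 12 libraries left 1746 genes called in postSTC against preSTC and 1399 in postSTC against preCTC, where 2612 had been called, and 10 pathway genes in each (12.2%, against 11.1% and 8.91% of all tested genes). There Scnn1a lost its call in postSTC against preCTC (adjusted p = 0.0624) and Scnn1g gained one (adjusted p = 0.0303). In the 8 libraries alone the block left 66 and 151 genes, and 2 and 0 of the 7. There Scnn1a, Nr3c2 and Hsd11b2 lost their calls in postSTC against preCTC (adjusted p 0.253, 0.141 and 0.118). Without the block, 1455 genes were called in postSTC against preCTC in 8 libraries. The block changed no call of the 7 genes in preSTC against preCTC, and of the genes named there it ended that of Tmprss2 in all 12 libraries (adjusted p = 0.0843). With a library left out in turn, 1609 to 3684 genes were called in postSTC against preSTC (1609, 1855 and 1681 without preSTC1, preSTC5 and preSTC7), and no call of the 7 genes was lost. Over these, Nr3c2 in postSTC against preSTC ran from -0.24 to 0.05, and in postSTC against preCTC Scnn1b ran from -0.56 to 0.03 and Sgk1 from -0.61 to 0.13. Pairs of shared numbers gave log2 ratio differences, for postSTC against preSTC and against preCTC, of 2.34 and 1.53 for Scnn1b to Scnn1a, 2.80 and 3.34 for Scnn1g to Scnn1a, and 1.73 and -0.26 for Hsd11b2 to Nr3c2, with -1.95 for preSTC against preCTC (exact sign-flip test, adjusted p = 0.281 for each), but 3 pairs cannot give a p under 0.25 and 4 pairs none under 0.125. A pseudocount of 0.1 FPKM gave 1.45 and 1.79 for Scnn1g to Scnn1a, in postSTC against preSTC and preSTC against preCTC. With a library left out, the ratio differences ran from 2.01 to 2.68, -1.06 to -0.36 and 1.33 to 1.89 for Scnn1b to Scnn1a, taking postSTC against preSTC first, then preSTC against preCTC, then postSTC against preCTC. For Scnn1g to Scnn1a they ran from 2.47 to 3.23, 0.36 to 0.99 and 3.14 to 3.95, and for Hsd11b2 to Nr3c2 from 1.48 to 1.78, -2.07 to -1.77 and -0.38 to -0.21. Depth limits Scnn1b and Scnn1g in preSTC, which rest on 2 to 21 counts a library.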
